A study of Mus musculus with 59 samples.

Results

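The voltage-gated sodium channel genes Scn1a, Scn2a, Scn3a, Scn8a, Scn2b, Scn3b and Scn4b were followed across 59 single mouse cells. These 7 genes, 4 for alpha subunits and 3 for beta subunits, were taken by symbol from 20689 genes, and the deposited table lists Scn2a under its older symbol Scn2a1. The study used chemicals to convert astrocytes of the living brain to neurons. The labels call all 59 cells chemical-induced neurons with an age of 12 weeks, and the content of each was drawn from a patch-clamped cell. The sources used here do not give genotype, sex, brain region or the chemicals and name no animal, and no control group was analysed here. The 59 cells therefore form 1 sample, no test was run, and cell numbers below are those of the labels.

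Sodium channels open when a neuron is depolarised and carry the inward current of the action potential. An alpha subunit forms the pore and the voltage sensor on its own, and beta subunits, small membrane proteins with an immunoglobulin-like domain, shift its gating and anchor it to adhesion and scaffold proteins. Channels are concentrated at the axon initial segment and at nodes of Ranvier, where ankyrin G holds them. Neurons differ in the alpha and beta genes they combine. Transcripts say which subunits a cell could make, and neither protein nor current was measured in these files.

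Values are FPKM, the fragments of a gene divided by its exon length in kilobases and by the size of the library. Genes are set beside each other on this scale, but evenness of coverage along transcripts was not examined. Exon lengths of the 7 genes ran from 4562 bases (Scn2b) to 15766 bases (Scn8a). A gene was called detected at an FPKM of 1 or more. Ranges after a percentage of cells are its exact 95% interval (Clopper-Pearson) and stand for counting error alone. Depth estimated from the deposited values had a median of 912996 fragments per cell (range 29043 to 2950402), and a median of 3984 genes was detected per cell (range 475 to 10310). All 10 neuronal marker genes examined, such as Snap25 and Syt1, were detected in at least 50% of cells, as were 7 of 8 oligodendrocyte genes, 4 of 6 microglia genes and 4 of 7 astrocyte genes. Of all genes, 11.7% reached that level. At least 50% of the neuronal markers were detected in 50 of the 59 cells.

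Sodium channel transcripts were present in most cells but rarely as a full set. At least 1 of the 7 genes was detected in 46 of 59 cells (78.0%, 65.3 to 87.7%). At the threshold of 1 FPKM, Scn2b was detected in 30 cells, Scn2a in 27, Scn1a in 25, Scn4b in 20, Scn8a in 19, and Scn3a and Scn3b in 18 each. The order at the top turned at any FPKM above 0, where Scn2a was found in 38 cells, Scn1a in 36 and Scn2b in 34. Of the 7 genes, 1 (Scn2b) was detected in at least 50% of cells, a level that 11.7% of all genes reached. All 7 were detected in at least 12 cells, which holds for 38.9% of all genes. The median over the 7 genes was 33.9% of cells, against 11.9% for the median gene of the table and 32.2% for the upper quartile.

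**Figure D1:**
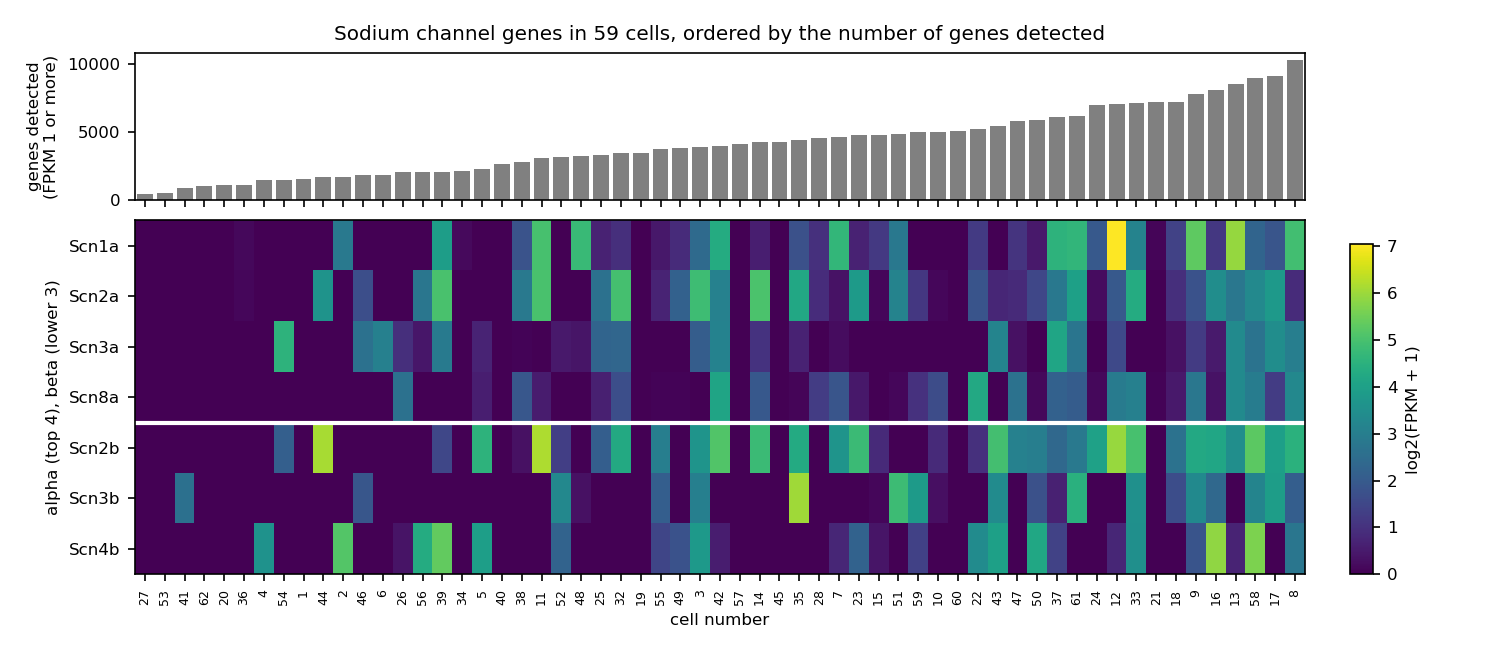
The lower panel gives the level of each of the 7 genes, as log2(FPKM + 1) in colour, in each of the 59 cells (columns), and the upper panel the number of genes detected in that cell. Cells run from 475 to 10310 detected genes, and dark columns, where no sodium channel gene was detected, occur along much of that range.

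Of the alpha genes, Scn2a encodes the channel known as Nav1.2, found in the proximal axon initial segment and in unmyelinated axons. It lies on the forward strand at chr2:65620771-65767447 (GRCm38). Across all 59 cells Scn2a ranged from 0 to 32.2 FPKM with a median of 0.834 FPKM, and it was detected in 27 cells (45.8%, 32.7 to 59.2%). In those 27 cells its median was 7.95 FPKM, with quartiles of 4.37 and 16.3 FPKM. Its highest levels were close together: 32.2 FPKM in cell 14, 31.5 FPKM in cell 39, 31.3 FPKM in cell 11 and 30.5 FPKM in cell 32. Cell 3, at 28.0 FPKM, came next, and the sixth cell was at 19.2 FPKM.

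Scn1a encodes Nav1.1, which is prominent in fast-spiking, parvalbumin-expressing inhibitory neurons. It lies on the reverse strand at chr2:66270778-66440840 and overlaps the gene Gm13630 on the other strand. Scn1a ranged from 0 to 131 FPKM with a median of 0.583 FPKM, and it was detected in 25 cells (42.4%, 29.6 to 55.9%). The median in those cells was 6.18 FPKM, with quartiles of 2.5 and 24.2 FPKM. Cell 12 stood apart at 131 FPKM, from 2613 recovered fragments, followed by cell 13 at 59.8 FPKM and cell 9 at 38.5 FPKM. Scn1a thus had the widest range of the 4 alpha genes, while its median among detecting cells was below that of Scn2a.

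The sequences just upstream of the starts of Scn2a and Scn1a are shown because these were most often the leading alpha genes of a cell. Both come from RefSeq on GRCm38.p6, are written along the gene's own strand and end at the base nearest the gene, and capitals mark each CG. The Scn2a window is chr2:65620519-65620768 (forward strand, 250 bases), and the Scn1a window is chr2:66440841-66441087 (reverse strand, 247 bases).
Scn2a: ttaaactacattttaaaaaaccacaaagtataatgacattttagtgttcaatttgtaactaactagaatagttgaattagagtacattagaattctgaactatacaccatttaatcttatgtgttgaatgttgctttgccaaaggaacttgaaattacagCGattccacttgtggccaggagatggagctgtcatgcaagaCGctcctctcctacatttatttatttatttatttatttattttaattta
Scn1a: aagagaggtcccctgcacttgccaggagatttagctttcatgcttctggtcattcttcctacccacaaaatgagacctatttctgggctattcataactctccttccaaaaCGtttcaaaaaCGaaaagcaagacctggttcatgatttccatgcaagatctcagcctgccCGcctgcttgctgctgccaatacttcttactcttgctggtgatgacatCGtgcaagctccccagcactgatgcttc
Within 250 bases upstream, Scn2a had 2 CG and Scn1a had 4, and 29.0% and 44.4% of 32851 mouse promoters had as few or fewer. Windows at the first listed starts of the other matched genes held 30 CG for Scn8a (94.8% of promoters had as few or fewer), 23 for Scn4b (88.0%) and 1 for Scn2b (18.8%). A second listed start of Scn2a and of Scn8a each held 9 CG. The first Scn8a window (chr15:100870395-100870644) lies inside the gene span given below, and the Scn4b and Scn2b windows lie partly inside theirs. Both second-start windows also lie inside the gene. The CG counts of these windows are therefore not placed like those of the printed Scn2a and Scn1a windows. CG is the same on both strands and no other motif was searched.

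Scn8a encodes Nav1.6, the main channel of the distal axon initial segment and of mature nodes of Ranvier. It lies at chr15:100869858-101045938 on the forward strand. Scn8a ranged from 0 to 17.9 FPKM with a median of 0.0723 FPKM, and was detected in 19 cells (32.2%, 20.6 to 45.6%). In those cells the median was 5.24 FPKM, the lowest among the 7 genes. Cell 22 (17.9 FPKM) and cell 42 (16.3 FPKM) were high, and the next cell was at 9.33 FPKM. Fragments of Scn8a were found in 33 cells.

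Scn3a encodes Nav1.3, which in rodents is best known from embryonic and early postnatal brain. It lies at chr2:65457118-65567627 on the reverse strand, 53143 bases from Scn2a, and overlaps the antisense gene Gm13595. Scn3a ranged from 0 to 22.4 FPKM with a median of 0 FPKM, and was detected in 18 cells (30.5%, 19.2 to 43.9%). The median in those cells was 6.08 FPKM, and the highest values were 22.4 FPKM in cell 54 and 16.6 FPKM in cell 37. Rescaling each cell without mitochondrial genes and the ribosomal RNA gene Rn18s-rs5 raised the share of cells with Scn3a to 44.1%. It raised the shares of the other channel genes too, to 55.9% for Scn1a and 42.4% for Scn8a. The 5 immature neuron genes Dcx, Sox11, Igfbpl1, Cd24a and Tubb2b were detected in a median of 13.6% of cells, against 11.9% for the median gene of the table. None of them was detected in at least 50%, a level that 11.7% of all genes reached. Dcx was detected in 6 cells, of which 5 had Scn3a and 6 had Scn1a. Given the number of detected genes, the correlation with Scn3a was 0.36 for Sox11 and -0.11 for Cd24a. With Scn1a the values were 0.35 for Sox11 and 0.18 for Cd24a. The sources used here do not give the strand setting of the counting, so reads of Scn3a, Scn1a, Scn2b and Scn3b cannot be told apart from those of genes that overlap them on the other strand.

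Among the beta subunits, Scn2b, whose product is joined to the alpha subunit by a disulphide bond, lies at chr9:45117782-45130070 on the forward strand and overlaps Gm10684. It ranged from 0 to 71.8 FPKM with a median of 1.45 FPKM, and was detected in 30 cells (50.8%, 37.5 to 64.1%). The median in those cells, 16.2 FPKM, was the highest among the 7 genes. Cells 11, 44 and 12 had 71.8, 69.0 and 61.5 FPKM of Scn2b, and cell 58 came next with 37.7 FPKM. Of the 30 detecting cells, 25 were at 5 FPKM or more, and fragments were found in 34 cells. Low levels of this shorter gene are harder to see, as 3 fragments of Scn2b correspond to a median of 0.720 FPKM over cells, against 0.208 FPKM for Scn8a.

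Scn4b also encodes a disulphide-linked subunit, and its intracellular tail is known to block open channels and so to give rise to resurgent sodium current. The gene lies 8324 bases beyond Scn2b on the same strand, at chr9:45138395-45154152. Scn4b ranged from 0 to 58.2 FPKM with a median of 0 FPKM, and was detected in 20 cells (33.9%, 22.1 to 47.4%). In those cells the median was 10.8 FPKM, with quartiles of 3.36 and 17.7 FPKM. Cell 16 (58.2 FPKM), cell 58 (49.0 FPKM), cell 39 (39.8 FPKM) and cell 2 (34.9 FPKM) were far above the fifth cell, at 19.0 FPKM. Of the 20 cells with Scn4b, 14 also had its chromosomal neighbour Scn2b.

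Scn3b, which binds the alpha subunit without a covalent bond, lies at chr9:40269217-40291618 and overlaps Gm47266. It ranged from 0 to 65.2 FPKM with a median of 0 FPKM and was detected in 18 cells (30.5%, 19.2 to 43.9%), with a median of 8.36 FPKM in those cells. Cell 35, at 65.2 FPKM, stood apart from cell 51 at 27.4 FPKM and cell 61 at 21.4 FPKM. Scn3b was at 0 in 37 cells, more than any other of the 7 genes.

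On the log2(FPKM + 1) scale, which understates differences between low levels, the order of the mean levels was Scn2b (2.04 ± 2.14, SD over 59 cells), Scn2a (1.59 ± 1.75), Scn1a (1.49 ± 1.92), Scn4b (1.21 ± 1.80), Scn3b (1.00 ± 1.60), Scn3a (0.92 ± 1.33) and Scn8a (0.89 ± 1.25). Each gap between neighbours in this order was smaller than the SD of either gene.

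**Figure D2:**
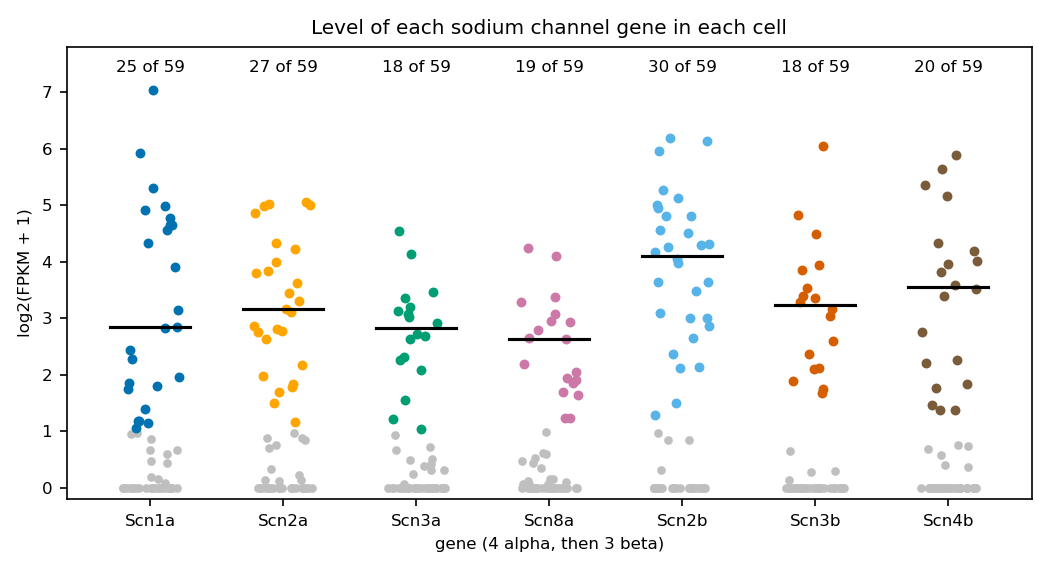
Each point is 1 cell, with the level of the gene on the y axis as log2(FPKM + 1), coloured where the gene was detected and grey where it was not; bars are medians of the detecting cells and the counts above are cells of 59. Scn2b has the highest median in detecting cells (16.2 FPKM) and Scn1a the highest single value (131 FPKM).

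Beyond the 7 genes, Scn9a was detected in 5 cells and Scn7a in 2. The sodium leak channel gene Nalcn was detected in 17 cells. Scn4a, Scn10a and Scn11a were looked up by symbol and were not among the deposited genes.

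The combination of subunits was then read cell by cell. An alpha gene was detected in 41 of 59 cells (69.5%, 56.1 to 80.8%) and a beta gene of the 3 in 39 cells (66.1%, 52.6 to 77.9%). Both were detected in 34 cells (57.6%, 44.1 to 70.4%), an alpha gene without any of the 3 beta genes in 7 cells (11.9%, 4.91 to 22.9%), and a beta gene without an alpha gene in 5 cells (8.47%, 2.81 to 18.7%). These small classes depended on the threshold and scaling. A beta gene without an alpha gene was found in 2 cells at any FPKM above 0, in 2 cells after rescaling without mitochondrial genes and Rn18s-rs5, and in 9 cells at an FPKM of 5. An alpha gene without a beta gene was found in 4 cells after that rescaling.

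Several alpha genes often occurred in 1 cell. Exactly 1 alpha gene was detected in 17 cells and 2 or more in 24, including 8 cells with all 4. All 3 beta genes were detected in 10 cells and exactly 1 in 20. Only cells 9 and 58, with 7837 and 8989 detected genes, had all 7 genes. The median cell had 3 of the 7 genes, with quartiles of 1 and 4, and this median was 1 at an FPKM of 5 and 4 at any FPKM above 0.

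Combinations were varied. The 59 cells showed 36 different sets out of 128 that are possible, and 26 of these sets were found in a single cell. After the 13 cells with none of the genes, the most frequent sets were all 4 alpha genes with Scn2b and Scn8a alone, with 3 cells each. The set of Scn8a alone holds only at the threshold of 1 FPKM. Its cells 10, 26 and 28 also had fragments of other channel genes below that level, and cell 28 had only 2 fragments of Scn8a. Scn2b accompanied 16 of the 18 cells with Scn3a, 20 of the 27 with Scn2a, 19 of the 25 with Scn1a and 14 of the 19 with Scn8a. Scn2b was the only beta gene of the 3 in 12 cells, Scn4b in 5 and Scn3b in 3.

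**Figure D3:**
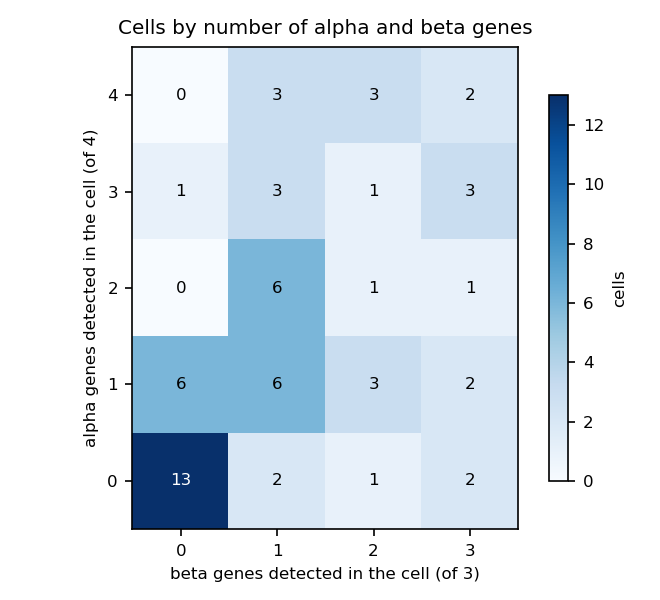
Squares give the number of cells (colour and figure) with each number of detected alpha genes (y axis, of 4) and beta genes (x axis, of 3). The fullest square is that of the 13 cells with neither, and 2 cells have all 7 genes.

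In most cells 1 alpha gene led. Among the 41 cells with an alpha gene, Scn2a was the highest in 19 (46.3%, 30.7 to 62.6%), Scn1a in 13 (31.7%, 18.1 to 48.1%), Scn8a in 5 (12.2%, 4.08 to 26.2%) and Scn3a in 4 (9.76%, 2.72 to 23.1%). The leading alpha gene held a median of 80.0% of the summed alpha FPKM (range 35.7 to 100%), and it held less than 50% in 6 cells. Scn3a led in cells 6, 43, 46 and 54. Its share was 2.78% among cells with at least 2000 genes, which keeps cell 43, and 3.45% among those with at least 500000 fragments, which keeps cell 46. Scn2b was the highest beta gene in 22 of 39 cells, Scn4b in 10 and Scn3b in 7.

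The leading alpha gene of a cell was then set beside its leading beta gene. Of the 13 cells led by Scn1a, 9 had Scn2b as the highest beta gene, 1 had Scn4b, 1 had Scn3b and 2 had none of the 3. Of the 19 cells led by Scn2a, 8 had Scn2b, 7 had Scn4b, 3 had Scn3b and 1 had none. Of the 5 cells led by Scn8a, 3 (cells 10, 26 and 28) had none of the 3 beta genes at 1 FPKM or more. Cells 10 and 26 had beta gene fragments below that level. The difference between the pairings of leading alpha and beta genes was not tested.

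**Figure D4:**
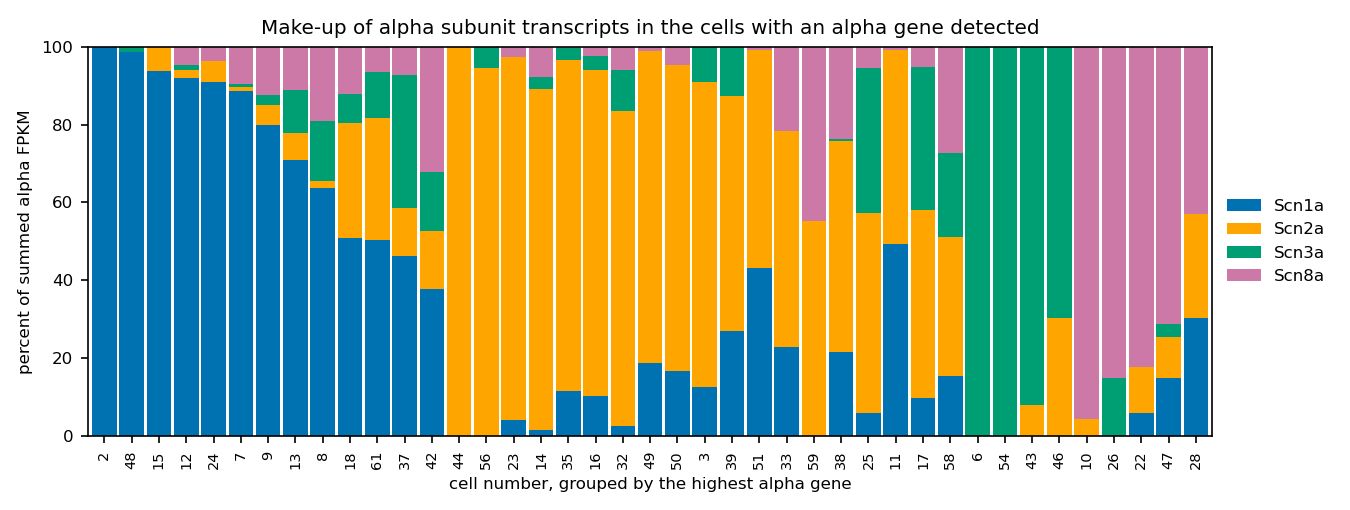
Each bar is 1 of the 41 cells with a detected alpha gene, and its colours give the percent of the summed alpha FPKM from each alpha gene. Cells are grouped by their highest alpha gene: 13 led by Scn1a, 19 by Scn2a, 4 by Scn3a and 5 by Scn8a, with 6 bars in which no gene reaches 50%.

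Alpha and beta levels were correlated across cells. The mean log2 level of the 4 alpha genes and that of the 3 beta genes had a Spearman correlation of 0.66 over 59 cells, and 0.54 once the number of detected genes was held constant. Within a cell the alpha mean exceeded the beta mean in 25 cells, the reverse held in 24, and both were 0 in the remaining 10. The SD of this within-cell difference was 1.17. Between single genes, holding the number of detected genes constant, Scn2a and Scn2b were the closest pair (0.57), followed by Scn1a and Scn2a (0.48), whereas Scn8a and Scn3b stood at -0.21 and Scn2b and Scn3b at 0.03. These correlations describe cells that share their source and differ in depth, and carry no p-value.

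More channel genes were detected where more genes were detected in all. The number of the 7 genes detected had a Spearman correlation of 0.62 with the number of all genes detected and of 0.33 with the estimated fragments. By gene, the correlation of the level with the number of genes detected was 0.66 for Scn8a, 0.57 for Scn1a, 0.51 for Scn2b, 0.46 for Scn3b, 0.43 for Scn2a and 0.27 for Scn4b and Scn3a. A call can rest on little, as the smallest detected value came from 2 fragments for Scn8a and Scn4b. At 10 fragments or more, Scn2a was found in 29 cells, Scn2b in 27, Scn1a in 24, Scn3a in 21, Scn8a in 19, Scn4b in 18 and Scn3b in 16.

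The channel genes were next set beside marker genes of neuron classes. Pvalb encodes parvalbumin, and Scn1a was detected in 19 of 30 cells with Pvalb (63.3%), against 6 of 29 cells without it (20.7%). The median number of detected genes was 4804.5 in cells with Pvalb and 3152 in cells without. Among cells with at least 2000 genes, Scn1a was found in 19 of 27 cells with Pvalb and in 5 of 19 without. The correlation of Scn1a and Pvalb levels, with the number of genes held constant, was 0.50. Other channel genes were also detected in a larger share of the cells with Pvalb, but the correlation of levels was not positive for all. Scn3b was detected in 10 of 30 cells with Pvalb and 8 of 29 without (correlation -0.08). Scn2b was detected in 22 of 30 cells with Pvalb and 8 of 29 without (correlation 0.39), and Scn8a in 15 of 30 with it and 4 of 29 without (0.41). Scn4b was detected in 11 of the 30 cells with Pvalb and in 9 of the 29 without (0.05). Scn1a was likewise detected in 21 of 34 cells with the somatostatin gene Sst and in 4 of 25 without (0.41). Cells with Sst and cells with Pvalb overlap, as in cell 7 with 2289 FPKM of Pvalb and 2449 FPKM of Sst. The Sst counts are therefore not separate from those for Pvalb.

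The cells with the highest Scn1a were nearly all rich in Pvalb. Pvalb stood at 1556 FPKM in cell 12, at 364 FPKM in cell 13, at 1453 FPKM in cell 9, at 714 FPKM in cell 11 and at 1252 FPKM in cell 8, the 5 cells with the most Scn1a. Cell 12 also had 9392 FPKM of Sst. Cell 61, eighth by Scn1a with 24.1 FPKM, had Pvalb at 0. Pvalb was detected in 11 of the 13 cells led by Scn1a, at 100 FPKM or more in 7, and in 13 of the 19 led by Scn2a, at 100 FPKM or more in 5. Neuronal markers moved with Pvalb: their summed level had a median of 1113 FPKM (0 to 2622) in cells with Pvalb and of 312 FPKM (0 to 2495) in cells without. Their part in the difference was not tested.

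Scn4b was found mostly in cells with Ppp1r1b. Ppp1r1b encodes DARPP-32, a phosphatase inhibitor abundant in striatal projection neurons, a cell class in which Scn4b is also strong. Scn4b was detected in 19 of 42 cells with Ppp1r1b (45.2%) and in 1 of 17 without it (5.88%). The median number of detected genes was 4592 in cells with Ppp1r1b and 1859 in cells without. Among cells with at least 2000 genes the counts were 17 of 38 with Ppp1r1b and 1 of 8 without. The correlation of the levels given the number of genes was 0.51 for Scn4b and Ppp1r1b and 0.54 for Scn2a and Ppp1r1b, and it was 0.23 for Scn1a and Ppp1r1b. The dopamine receptor gene Drd1 was found in 11 cells, of which 9 had Scn4b, against 11 of the 48 cells without Drd1.

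The 2 cells highest in Scn4b, cells 16 and 58, had 1035 and 1475 FPKM of Ppp1r1b. Cell 2, with 34.9 FPKM of Scn4b, had 5.88 FPKM of Ppp1r1b. Scn2b was detected in 29 of 42 cells with Ppp1r1b and in 1 of 17 without, and Scn2a in 24 of the 42 with it and 3 of the 17 without. Ppp1r1b was detected in 18 of the 19 cells led by Scn2a, at 100 FPKM or more in 10, and in 11 of the 13 led by Scn1a, at 100 FPKM or more in 2. The summed neuronal markers had a median of 807 FPKM (7.82 to 2620) in cells with Ppp1r1b and of 265 FPKM (0 to 2622) in cells without, and their part in these counts was not tested.

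**Figure D5:**
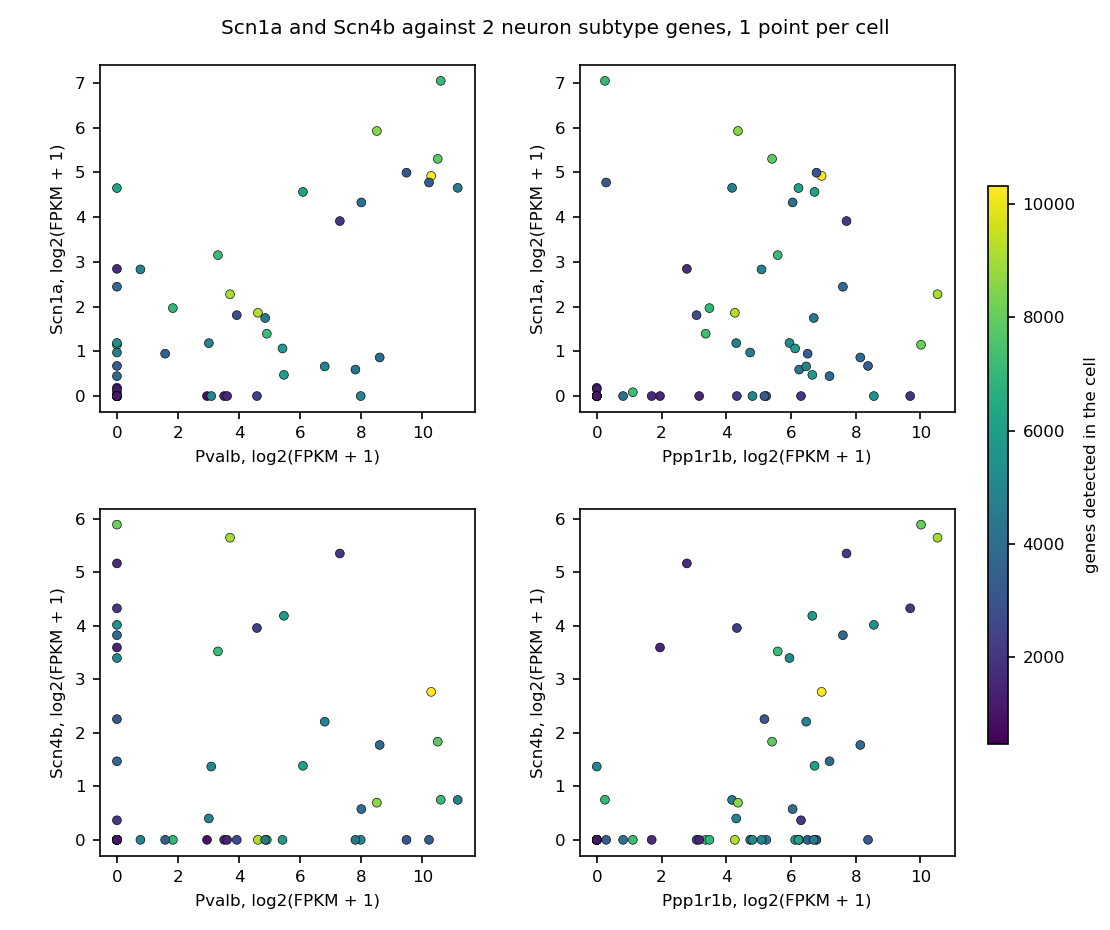
Points are the 59 cells, with Scn1a (upper panels) or Scn4b (lower panels) against Pvalb (left) or Ppp1r1b (right), all as log2(FPKM + 1), coloured by the number of genes detected. The highest Scn1a cells lie to the right of the Pvalb panel (correlation 0.50 with the number of genes held constant), and high Scn4b lies to the right of the Ppp1r1b panel (0.51).

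GABA-synthesis genes were common alongside the channels. Scn2a was detected in 27 of 45 cells with Gad2 and in 0 of 14 without it, and in 26 of 46 cells with Gad1 and 1 of 13 without. Scn1a was detected in 24 of 45 cells with Gad2 and 1 of 14 without, and in 25 of 46 cells with Gad1 and 0 of 13 without. Scn4b was found in 17 of 45 cells with Gad2 and in 3 of 14 without. The median number of detected genes was 4561 in cells with Gad2 and 1944 in the 14 cells without. The vesicular glutamate transporter gene Slc17a7 was found in 20 cells, of which 16 had Scn2b and 11 each had Scn1a, Scn2a, Scn8a and Scn4b. Among the 39 cells without Slc17a7, 14 had Scn2b, 14 Scn1a, 16 Scn2a, 8 Scn8a and 9 Scn4b. The median number of detected genes was 4703.5 in cells with Slc17a7 and 3465 in cells without.

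The genes whose level followed each channel gene most closely, with the number of detected genes held constant over 59 cells, are given by name. For Scn1a they were Trim32 (0.70), the vesicle GTPase gene Rab3c (0.66) and the exchange factor gene Rasgrf1 (0.66). For Scn2a the G-protein signalling regulator Rgs4 (0.67) and Ap1ar (0.65) were among them. For Scn3a they were the G-protein alpha gene Gnal (0.68), Snhg11 (0.64) and Elmod1 (0.62), and for Scn8a the postsynaptic scaffold gene Dlgap1 (0.62), the calcium channel beta gene Cacnb4 (0.61) and Serpini1 (0.59).

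Among the beta genes, Scn2b was closest to the synaptotagmin gene Syt1 (0.71), the microtubule protein gene Map1b (0.68) and Gpm6a (0.68). Scn4b was closest to Bcl11b (0.65), a transcription factor gene of striatal and deep cortical neurons, the tachykinin precursor gene Tac1 (0.61) and the diacylglycerol kinase gene Dgkb (0.58). Scn3b had the weakest partners, Gdpd5 (0.58), Necab2 (0.56) and 2010300C02Rik (0.50). These are the top 3 of 8042 genes detected in at least 12 cells, chosen for being the highest, and the median over all pairs of those genes was 0.0069.

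Partners of the channels at the axon initial segment and nodes were detected in part. Ank3, which encodes ankyrin G, was found in 41 cells, the adhesion gene Cntn1 in 38, the ubiquitin ligase gene Nedd4l in 31 and neurofascin, Nfasc, in 30. These were the 4 of 12 genes detected in at least 50% of cells, a level that 11.7% of all genes reached. Sptbn4, the beta-IV spectrin gene, was found in 11 cells, all of which had Scn2a, a gene detected in 27 of all 59 cells. Depth was not taken into account in this count. The mean level of the 12 genes had a correlation of 0.55 with the mean level of the 7 channel genes, given the number of detected genes. Genes of the list differed in this. Nfasc was negative with each of the 7 channel genes (-0.23 with Scn1a), and Nrcam ranged from -0.09 (Scn3b) to 0.57 (Scn2b). Ankyrin G and neurofascin are also made by oligodendrocytes, whose own markers were detected in most cells.

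Potassium channel genes that shape and end the action potential gave a similar value, 0.57 over 7 genes. Kcna1 was found in 40 cells, Kcnq3 in 33 and Kcnd2 in 30. With single channel genes, holding the number of detected genes constant, Kcna1 stood between -0.18 (Scn3b) and 0.12 (Scn4b). Kcnq3 stood between 0.14 (Scn3b) and 0.37 (Scn1a). Kcnc1, which encodes the fast delayed rectifier Kv3.1, was found in 24 cells, and 18 of these had Scn1a and 20 had Scn2b. Over all 59 cells Scn1a was detected in 25 and Scn2b in 30. Given the number of detected genes, Kcnc1 had a correlation of 0.48 with Scn1a, 0.50 with Scn2b and 0.09 with Scn3b. With the number of detected genes held constant, the correlation with the 7 channel genes was 0.74 for the 10 neuronal markers, 0.40 for the astrocyte genes, 0.19 for the immature neuron genes, -0.26 for the microglia genes, -0.37 for the oligodendrocyte genes and -0.46 for the oligodendrocyte precursor genes. Without holding it constant the values were 0.81 for the neuronal, 0.55 for the astrocyte, 0.50 for the immature neuron, 0.07 for the microglia, -0.14 for the oligodendrocyte and -0.07 for the precursor genes, so the microglia value changed sign.

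An alpha gene was detected in 41 of the 50 cells with at least 50% of the neuronal markers (82.0%, 68.6 to 91.4%), and in 0 of the other 9 cells, an interval that reaches 33.6%. The median number of detected genes was 4366 in the 50 cells and 1139 in the 9. A beta gene was nevertheless found in 2 of the 9, Scn4b in cell 4 and Scn3b in cell 41.

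In 13 cells none of the 7 genes was detected, and in 10 of these every one was at 0. Depth differed widely among them: 8 had at least 500000 fragments and 7 at least 2000 detected genes. In cell 20, with 29043 fragments, 3 fragments of Scn1a would already have given 9.27 FPKM, so that lower levels could not be told from 0. In cells 40, 60 and 21 the same limit was 0.0999, 0.106 and 0.0917 FPKM, well under the detection threshold. Snap25 was detected in 9 of the 13 cells, the myelin gene Mbp in 11 and the microglial complement gene C1qb in 7. Over all cells, Snap25 was detected in 54 (91.5%), Mbp in 55 (93.2%) and C1qb in 42 (71.2%). Each of these genes was thus found in a smaller share of the 13 cells than of all cells.

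Marker levels of the cells with and without channel genes overlapped. The summed level of the 8 oligodendrocyte genes had a median of 2008 FPKM (7.11 to 28587) in the 46 cells with a channel gene and of 7395 FPKM (82.2 to 19793) in the 13 without. For the 6 microglia genes the medians were 687 FPKM (0 to 19770) in cells with a channel gene and 794 FPKM (0 to 29132) in cells without. For the 7 astrocyte genes they were 356 FPKM (0.641 to 3203) in cells with a channel gene and 6.13 FPKM (0 to 131) in cells without, where Aqp4 was at 0 throughout. The 10 neuronal markers had a median of 807 FPKM (0 to 2622) in cells with a channel gene and of 184 FPKM (0 to 1080) in cells without. The part of these markers in the detection of the channel genes was not tested.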

How the data were processed

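The authors deposited 1 table of FPKM per gene and cell. STAR 2.5.3a, featureCounts 1.5.3 and the build GRCm38 are named per the submitters' processing notes. The sources used here give no annotation release, strand setting or rule for multi-mapped reads. The table has 20740 rows, of which 51 ERCC spike-ins were left out. The 7 members and all lists were chosen with earlier results of these data known.

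Fragments per cell were recovered from the spacing of low FPKM times GENCODE M21 exon lengths (93.6% of genes have one). Up to 20 fragments, a median of 73.3% (63.9 to 79.9%) of values per cell were whole within 0.02 fragments, so no count model was used. For the 7 genes the exon length was the one within 10% of M21 at which the lower values came out whole; it equalled M21 for the alpha genes. Identical columns were sought and 0 pairs found.

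Detection is an FPKM of 1 or more and log2 values are log2(FPKM + 1). Partial Spearman correlations hold the number of detected genes constant. The cells are 1 sample without named animals, so there is no group comparison, test or p-value. Genes named are the 7 members, the 3 genes closest to each among genes in at least 12 cells, and the fixed lists; a few genes of this rule are not reported here. Alternatives were any FPKM above 0, FPKM 5, 10 recovered fragments, rescaling, other pseudocounts, fewer cells and no filter on genes. The code was tested on simulated data. Python 3.11.15, numpy 2.4.6, pandas 2.3.3, scipy 1.17.1 and matplotlib 3.10.9 were used.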

Additional observations from a re-analysis of the deposited data

How the results depend on the processing

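Of 151 values under alternative settings for 20 results, 136 were counted as unmoved and 15 as moved, and the cause of the moves was not tested. Shares were judged by their counting interval and medians by the SD over cells. The correlation with depth was judged by a fixed tolerance and the closest genes by the overlap of the lists. These rules are loose, as the median number of channel genes per cell, 3, fell to 1 at an FPKM of 5 and counted as unmoved. At any FPKM above 0, Scn1a was found in 61.0% of cells, Scn2a in 64.4%, Scn3a in 49.2%, Scn8a in 55.9%, and alpha with beta in 71.2%. At an FPKM of 5, Scn1a was in 23.7%, Scn8a in 16.9%, Scn4b in 22.0%, an alpha gene in 55.9% and alpha with beta in 42.4%. Rescaling without mitochondrial genes and Rn18s-rs5 gave 44.1% for Scn3a, counted as moved. It gave 55.9% for Scn1a, which counted as unmoved. Among cells with at least 50% of the neuronal markers an alpha gene was in 82.0%. The correlation of detection with the number of genes was 0.72 at any FPKM above 0, 0.50 at an FPKM of 5 and 0.50 in cells with at least 2000 genes. Of the 21 genes closest to the members, 15 were the same with plain correlations and 20 without the filter on genes. The detection shares thus depend on the threshold, and 3 fragments of Scn2b exceed 1 FPKM in all but 37 cells. No paired analysis was possible because the cells form 1 group and no number pairs them.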
